A study of Mus musculus with 6 samples.

Results

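The genes described here are the core transcription factors of pluripotent cells and the RNA-binding protein gene Lin28a: Pou5f1 (which encodes Oct4), Sox2, Nanog, Sall4, Nr0b1, Esrrb, Klf4, Dppa4, Utf1 and Lin28a. They were chosen by name, with earlier results of these data known. Their probes were found through the RefSeq accession that the array files give for each probe. Of the 10 listed genes, 9 had a probe, with 10 probes in all of 41174 on the array; the 9 stand among 17178 genes that received a symbol. Nanog was matched by no probe in this way and was not analysed here. All 9 measured genes passed the filter on dim probes, which asks that the scanner software called a probe well above background on 2 or more arrays; 8 did so on all 6 arrays and Dppa4 on 4.

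RNA came from P19, a line of mouse embryonal carcinoma cells that can be driven to form neurons with retinoic acid. AICD/P19 cells expressed the AICD, the intracellular fragment that is released when the amyloid precursor protein APP is cut by gamma-secretase, and pCDNA/P19 cells carried the empty vector. They are called AICD cells and vector cells below. Each line was taken undifferentiated, aggregated (after 4 days of aggregation in 5e-07 M all-trans retinoic acid) and differentiated (after 2 further days on culture dishes or coated disks), and each of the 6 line and state combinations was hybridised to 1 single-colour array. The labels speak of cell lines and do not say whether a line is 1 clone or several, nor that the arrays came from separate cultures. The AICD transgene itself was not measured by a probe that can be told from the endogenous App transcript in the sources used here.

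Oct4 and Sox2 bind DNA side by side at many enhancers of pluripotent cells and, with Nanog, sustain each other's genes. Sall4, Esrrb, Klf4 and Nr0b1 (Dax1) are tied into the same circuit, Utf1 and Dppa4 are chromatin-associated proteins of pluripotent cells, and Lin28a blocks the maturation of let-7 microRNAs. Most of these genes are shut off when pluripotent cells differentiate, while Sox2 stays on in neural progenitors. In embryonal carcinoma cells, retinoic acid is long known to silence Pou5f1.

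Values are normalized log2 signals, that is log2 of the spot brightness minus that of the array's 75th percentile, so that 0 is the 75th percentile and 1 unit is a 2-fold change. With 1 array per line and state there is no replicate, and a difference between single arrays has no test. Differences of at least 2-fold between arrays on which the gene was well above background are counted as apart, and the share of all genes that far apart is given beside each count. Spots that repeat a probe within an array had a log2 SD of 0.0697 to 0.0837, which covers spot noise and not the variation of cultures or hybridisations. The arrays resembled each other in quality: between 62.0% and 65.9% of spots were well above background and 0 were saturated. Both undifferentiated arrays lay on slide 1 and the 4 others on slide 2. A change from the undifferentiated state therefore cannot be told apart from the slide, whereas the lines were always compared on the same slide and so were the aggregated and differentiated states. In RNA from whole cultures, fewer cells that express a gene and less RNA per cell cannot be told apart.

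**Figure D1:**
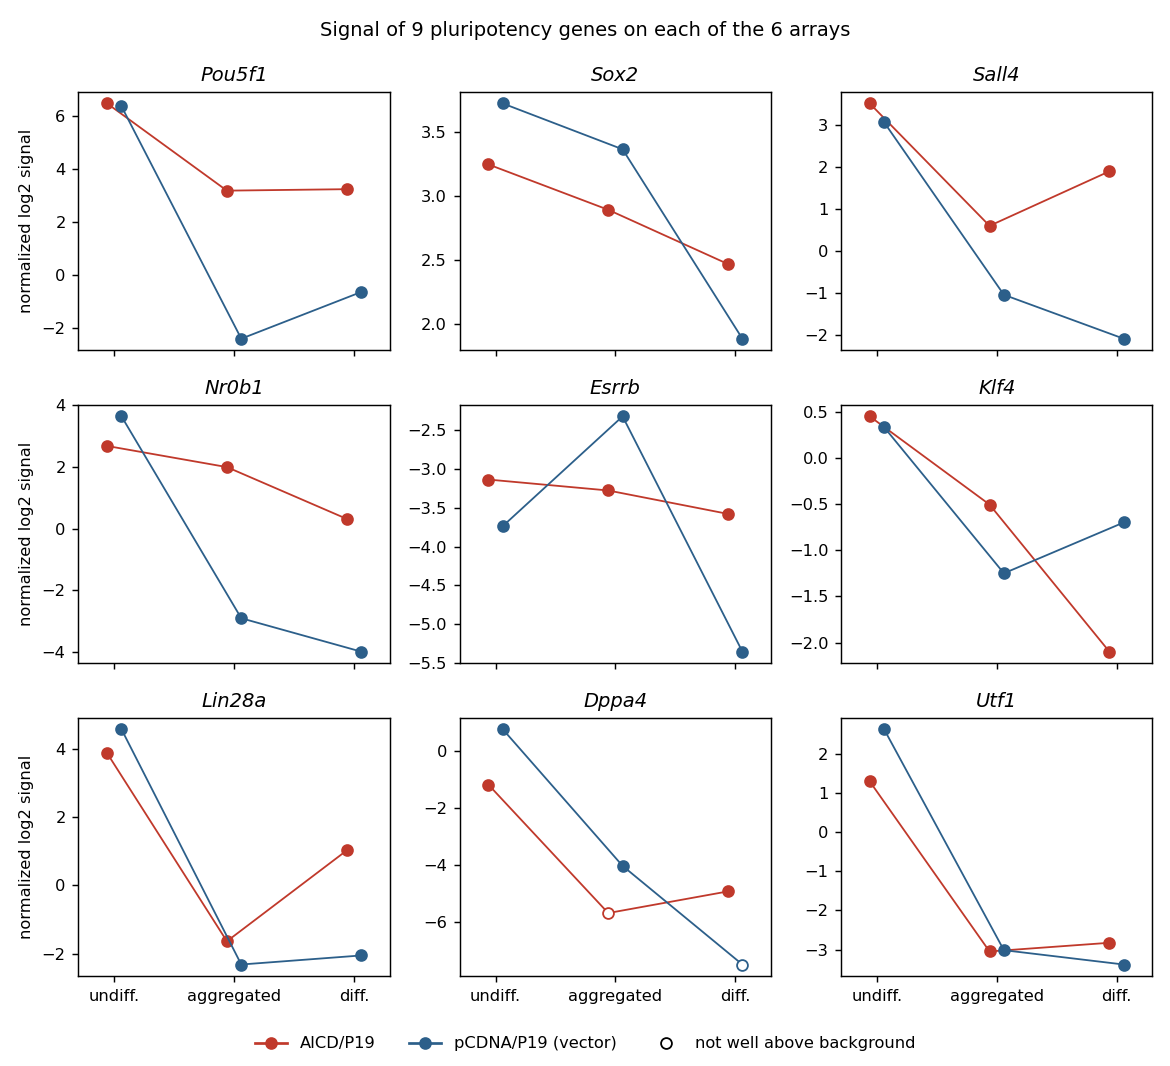
Normalized log2 signal (y axis, log2 relative to the array's 75th percentile) of the 9 measured genes, 1 panel per gene, in the undifferentiated, aggregated and differentiated states (x axis); each point is 1 array, AICD cells and vector cells have their own line, and open points mark arrays on which the probe was not well above background. Pou5f1 of aggregated cells stands at 3.19 in AICD cells and at -2.40 in vector cells, while Sox2 stays between 1.88 and 3.72 on all 6 arrays.

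In limma over both lines, 6 of 8 neuron markers were called higher on aggregation, where 14.3% of all genes were, and 7 of 8 from the undifferentiated to the differentiated state, where 20.1% were. Stmn2, at 0.94 in aggregated and 1.94 in undifferentiated cells over both lines, and Gap43, with a difference of -0.28, did not pass on aggregation. Of these 8 neuron markers (Tubb3, Map2, Stmn2, Dcx, Elavl3, Elavl4, Snap25 and Gap43), 7 were well above background on each undifferentiated array and 8 on each later array. Their summed signal, in units of the 75th percentile, was 14.2 in AICD cells and 13.1 in vector cells when undifferentiated, 74.8 and 48.5 when aggregated, and 141 and 187 when differentiated. Of 6 surface and enzyme markers of embryonal carcinoma cells, 4 were above background in undifferentiated AICD cells and 5 in undifferentiated vector cells. Tdgf1, Epcam, Alpl and Gal were detected there, Cdh1 was not in AICD cells, and Fut4 was on 0 of the 6 arrays. Their summed signal was 9.37 in AICD cells and 12.2 in vector cells when undifferentiated, 3.47 and 1.72 when aggregated, and 2.58 and 1.30 when differentiated. For markers of other lineages, summed signals over the 6 arrays lay between 0.397 and 1.31 for 7 primitive endoderm markers (4 or 5 above background, Sox7 and Afp on 1 array each), and between 0.446 and 1.08 for 6 mesoderm markers (3 to 5 above, Mixl1 on 0 arrays). They lay between 0.109 and 0.692 for 5 trophoblast markers (1 to 3 above, Hand1 and Elf5 on 0 arrays), and between 0.0982 and 0.348 for 5 germ cell markers (2 or 3 above, Dazl on 0 arrays). Single markers of these lists differed between the lines in the aggregated state. The mesoderm factors T and Eomes were higher in aggregated AICD cells, T by 2.32 and Eomes 13.7-fold. The fold of Eomes is measured against a vector signal that was not well above background. The trophoblast and posterior factor Cdx2 was also higher in aggregated AICD cells, by 2.61. The other tested trophoblast markers, Krt8 and Krt18, went the other way, by -0.96 and -0.84. Of the other mesoderm markers, Kdr differed by -1.31 and Tbx6 by 0.33. The 6 mesenchyme markers (Col1a1, Col1a2, Col3a1, Thy1, Pdgfrb and Snai2) differed between the lines: their summed signal was 1.69 in AICD cells and 3.08 in vector cells when undifferentiated, 0.771 and 6.22 when aggregated, and 0.499 and 29.7 when differentiated. All 6 were above background on each vector array, against 6, 4 and 3 of them on the AICD arrays in the order of the states. The part of these differences in the results below was not tested.

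Pou5f1 encodes Oct4, the POU factor without which pluripotent cells are lost. Its normalized log2 signal was 6.48, 3.19 and 3.25 in undifferentiated, aggregated and differentiated AICD cells, against 6.37, -2.40 and -0.64 in vector cells. The undifferentiated arrays differed by 0.11, so the lines began alike within 2-fold and parted by 5.59 when aggregated and 3.88 when differentiated. Before scaling, the processed signals were 55518.5, 5537.81 and 7387.91 in AICD cells, against 43828.9, 149.536 and 565.203 in vector cells. Relative to the undifferentiated array of the same line, aggregated AICD cells kept 10.2% of the signal and aggregated vector cells 0.230%, and differentiated cells kept 10.6% in the AICD line and 0.778% in the vector line. The aggregation step of vector cells was the largest drop among the 12076 genes well above background on both arrays. The aggregated line difference held rank 5 among 11989 genes ordered from the most raised in AICD cells, and the differentiated one rank 28 of 12282. After replating, the AICD signal moved by 0.06 and that of vector cells by 1.76, so the gap narrowed from the vector side.

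Nr0b1 encodes Dax1, an orphan nuclear receptor that binds Oct4 and acts in mouse embryonic stem cells. It had normalized log2 signals of 2.68, 2.00 and 0.32 in AICD cells, against 3.64, -2.90 and -3.98 in vector cells, in the order undifferentiated, aggregated, differentiated. The lines thus differed by -0.96 at the start, and AICD cells were higher by 4.90 and 4.30 in the later states, at ranks 8 and 17 among all genes well above background. Aggregated AICD cells kept 62.2% of the undifferentiated signal, against 1.07% in vector cells. After replating it moved by -1.68 in AICD cells and by -1.08 in vector cells, with 19.4% and 0.507% of the undifferentiated signal left. The difference between the aggregation steps of the lines, 5.86 for Nr0b1 and 5.48 for Pou5f1, held ranks 2 and 7 of 11594 genes well above background on all 4 arrays. With 1 array per line and state this difference of steps has no test.

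Sall4, a zinc finger factor that activates Pou5f1, was measured by 2 probes that disagree. The brighter probe, used in the tests, had 3.50, 0.59 and 1.89 in AICD cells, against 3.06, -1.05 and -2.09 in vector cells. By this probe the lines differed by 0.45 when undifferentiated, 1.64 when aggregated and 3.98 when differentiated, where it held rank 26. After replating it was higher in AICD cells (1.30) and lower in vector cells (-1.04). The dimmer probe had -0.06, -1.53 and -1.90 in AICD cells, against -0.03, -1.77 and -2.26 in vector cells. Its line differences were -0.03, 0.24 and 0.36, each under 2-fold, and after replating it was lower in AICD cells (-0.37) and in vector cells (-0.50). Both probes were lower in aggregated than in undifferentiated cells of either line. Which probe follows which transcript of the gene was not given in the sources used here.

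Lin28a showed another order of events. Its normalized log2 signal was 3.88, -1.64 and 1.02 in AICD cells, against 4.58, -2.32 and -2.06 in vector cells. Aggregated cells of both lines had lost nearly all of it, with 2.18% of the undifferentiated signal left in AICD cells and 0.835% in vector cells, and the lines differed there by 0.68. After replating the signal was higher by 2.67 in AICD cells, at 634% of the aggregated level and rank 52 of 12064 genes, and higher by 0.27 in vector cells. Differentiated cells thus held 13.8% of the undifferentiated signal in the AICD line and 1.004% in the vector line, a line difference of 3.08 at rank 47. Its paralogue Lin28b, which also blocks let-7, had 2.25, 0.53 and 0.80 in AICD cells, against 2.74, 0.67 and -0.43 in vector cells, so that the lines stood 1.24 apart in the differentiated state. Lin28a and Sall4 (brighter probe) were the members at least 2-fold higher in differentiated than in aggregated AICD cells.

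Utf1, a chromatin-associated coactivator that Oct4 and Sox2 control through an enhancer, was nearly lost from both lines. It had 1.30, -3.05 and -2.83 in AICD cells, against 2.64, -3.02 and -3.38 in vector cells. Aggregated cells kept 4.90% of it in the AICD line and 1.99% in the vector line, and the lines differed by -1.33, -0.03 and 0.56 in the order of the states. Dppa4, a DNA-binding protein of pluripotent cells, reached background in some cultures: it had -1.19, -5.70 and -4.94 in AICD cells, against 0.75, -4.04 and -7.51 in vector cells, and was not well above background in aggregated AICD cells and in differentiated vector cells. In AICD cells it differed by -1.94 from vector cells when undifferentiated, was at least 3.15-fold lower when aggregated and higher by at least 2.10-fold when differentiated. A bound sets the brighter array against the dimmer array's own signal or its lowest signal well above background, whichever is higher. In aggregated AICD cells that was Dppa4's own signal, so 3.15 is the measured fold against a signal not well above background. With normexp background correction, the aggregated difference of Dppa4 was -0.38 and the differentiated one 0.52. That alternative adds an offset of 50 to every signal, which by itself shrinks log2 differences of probes this dim.

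Sox2, the partner of Oct4 that neural progenitors also use, had the smallest range over the 6 arrays among the 9 genes. It had 3.25, 2.89 and 2.47 in AICD cells, against 3.72, 3.37 and 1.88 in vector cells, and the lines differed by less than 2-fold in each state (-0.48, -0.47 and 0.58). Aggregated cells kept 78.2% of the undifferentiated signal in the AICD line and 78.0% in the vector line. Differentiated cells kept 58.2% and 27.9% of it. Klf4, a Krüppel-like factor used in reprogramming, had 0.45, -0.51 and -2.10 in AICD cells, against 0.33, -1.25 and -0.70 in vector cells. It was the member at least 2-fold lower in differentiated AICD cells (-1.40), and it was lower after replating in AICD cells (-1.59) and somewhat higher in vector cells (0.55). Esrrb, an orphan nuclear receptor of naive pluripotency, lay below the 75th percentile on every array, with -3.14, -3.28 and -3.58 in AICD cells, against -3.74, -2.33 and -5.35 in vector cells. Its line differences of 0.60, -0.95 and 1.77 shrank to 0.12, -0.45 and 0.66 with normexp background correction. The offset of 50 in that alternative by itself shrinks log2 differences of dim probes, and Esrrb's processed signals lay between 21.5 and 157. The shrinkage therefore cannot show how much the background correction itself matters.

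**Figure D2:**
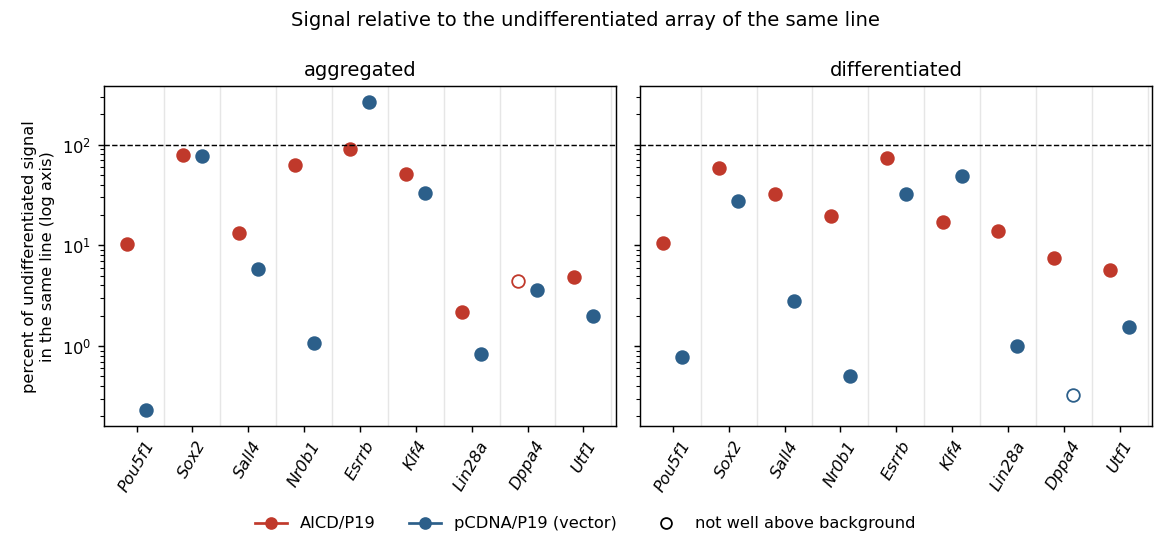
Percent of the undifferentiated signal of the same line that was left in aggregated and differentiated cells (log axis), by gene, with AICD cells and vector cells side by side. Pou5f1 kept 10.2% in aggregated AICD cells and 0.230% in aggregated vector cells, Nr0b1 62.2% and 1.07%, whereas Sox2 kept 78.2% and 78.0%.

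RefSeq promoter sequences (build GRCm38.p6) were given for 8 of the 10 listed genes, Sall4 and Dppa4 being the others, and the 250 bases before the start were searched on both strands. The motifs were the nuclear receptor core AGGTCA, to which retinoic acid receptors and orphan receptors bind as single or repeated copies, the Sox core CATTGT, the GC box GGGCGG and the octamer ATGCAAAT of POU factors. The windows of 4 genes are shown because, among the genes with a window, their transcripts set the lines apart most (Pou5f1, Nr0b1 and Lin28a) or were nearly lost from both (Utf1). Capitals mark the matches, and each sequence runs 5′ to 3′ towards the start.
Pou5f1 (chr17:35505782-35506031, plus strand): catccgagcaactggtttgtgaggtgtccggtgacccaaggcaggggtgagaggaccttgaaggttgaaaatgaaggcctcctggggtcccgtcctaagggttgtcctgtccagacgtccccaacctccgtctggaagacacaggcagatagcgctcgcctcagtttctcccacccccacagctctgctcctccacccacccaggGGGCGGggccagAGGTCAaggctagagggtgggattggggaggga
Nr0b1 (chrX:86191525-86191774, plus strand): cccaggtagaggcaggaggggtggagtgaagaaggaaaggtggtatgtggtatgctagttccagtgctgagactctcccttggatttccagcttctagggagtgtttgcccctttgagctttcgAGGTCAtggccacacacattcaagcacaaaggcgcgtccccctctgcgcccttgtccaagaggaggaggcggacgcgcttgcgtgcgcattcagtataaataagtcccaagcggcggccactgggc
Lin28a (chr4:134018817-134019066, minus strand): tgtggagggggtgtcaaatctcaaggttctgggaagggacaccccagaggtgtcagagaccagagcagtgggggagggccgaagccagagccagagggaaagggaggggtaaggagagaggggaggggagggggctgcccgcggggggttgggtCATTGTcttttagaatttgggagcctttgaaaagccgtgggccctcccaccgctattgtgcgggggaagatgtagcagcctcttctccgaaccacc
Utf1 (chr7:139943606-139943855, plus strand): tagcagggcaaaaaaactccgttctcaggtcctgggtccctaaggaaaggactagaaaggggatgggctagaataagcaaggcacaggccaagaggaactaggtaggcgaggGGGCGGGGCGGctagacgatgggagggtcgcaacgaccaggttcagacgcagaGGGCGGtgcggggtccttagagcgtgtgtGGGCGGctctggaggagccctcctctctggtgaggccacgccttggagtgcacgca
The Pou5f1 window holds an AGGTCA match whose first base lies 33 bases before the start and a GC box at 45, and for this gene the table lists 2 windows, of which the first is shown. Nr0b1 has an AGGTCA match at 126, Lin28a a CATTGT match at 96, and Utf1 GC boxes at 138, 133, 85 and 56, the first pair of which share a base. Over the 8 windows, AGGTCA was found in 4 (Pou5f1, Nanog, Sox2 and Nr0b1), GGGCGG in 4 (Pou5f1, Sox2, Klf4 and Utf1), CATTGT in 2 (Nanog and Lin28a) and the octamer in 0. Of all 32851 windows in the table, 14.0% hold AGGTCA, 32.7% GGGCGG, 10.7% CATTGT and 1.6% the octamer. A match is a string of letters in this window and shows no binding.

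The comparison of the lines asks which transcripts differ in cells that express AICD. With 1 AICD line and 1 vector line, an effect of AICD cannot be told apart from any other difference between the lines. Within single states, 0 of 9 members exceeded a 2-fold rise and 2 were lower by that much (Dppa4 and Utf1) in undifferentiated AICD cells, where 4.21% and 4.11% of 12555 genes were. In the aggregated state 3 of 8 members above background on both arrays were higher (Pou5f1, Nr0b1 and Sall4) and 0 lower, against 4.21% and 3.12% of 11989 genes. In the differentiated state 5 of 8 were higher (Nr0b1, Sall4, Pou5f1, Lin28a and Esrrb) and 1 lower (Klf4), against 4.62% and 3.96% of 12282 genes. With Dppa4 taken at its bound, the median difference over all 9 measured members was -0.48, 0.68 and 1.77 in the order of the states, beside medians of -0.06, 0.02 and 0.02 over all genes. With the dimmer probe of Sall4 in place of the brighter one, Sall4 leaves both counts of higher members.

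**Figure D3:**
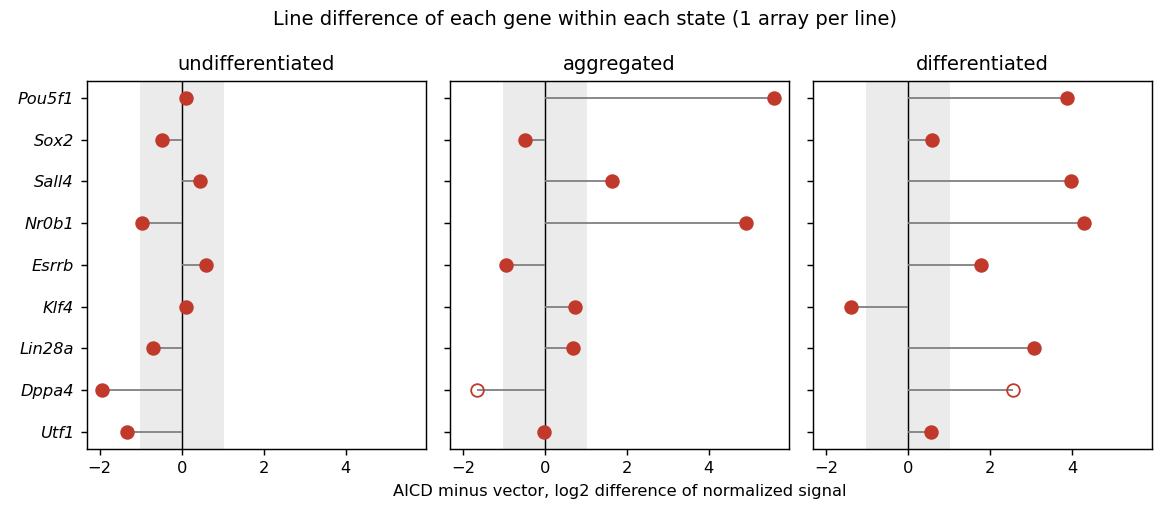
Difference between AICD cells and vector cells (x axis, log2, AICD minus vector) for the 9 genes in the 3 states; each point compares 1 array with 1 array, the grey band marks differences under 2-fold, and open circles mark pairs in which 1 array was not well above background. Pou5f1 and Nr0b1 lie within the band when undifferentiated and at 5.59 and 4.90 when aggregated, and Lin28a leaves it in the differentiated state, at 3.08.

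Over the 3 states together, limma with state and line as terms called 0 of the 9 members different between AICD cells and vector cells, where it called 0.351% of 13381 genes, 0.209% higher and 0.142% lower (adjusted p under 0.05, Benjamini-Hochberg). At an unadjusted p under 0.05 there were 1673 of all genes and 1 member, Pou5f1. The error of this test is how much a gene's line difference varied from state to state, so a gene that parts only after aggregation has a large one. Pou5f1 had a difference of 3.19 ± 1.14 (log2, AICD minus vector, ± limma standard error, n = 3 arrays per line) with adjusted p = 0.397, and was higher in AICD cells in 3 of 3 states. Nr0b1 had 2.75 ± 1.31 (limma adjusted p = 0.494, higher in 2 of 3 states) and Sall4 2.02 ± 0.74 (0.402, higher in 3 of 3). The other 6 had estimates between -0.34 (Dppa4) and 1.02 (Lin28a) with adjusted p of 0.672 or more. Fitted to slide 2 alone, with its 4 arrays, 1 member was called, Nr0b1, at 4.60 with limma adjusted p = 0.0395, while Pou5f1 stood at 4.73 with 0.0758.

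The step from undifferentiated to aggregated cells asks what changed over 4 days of aggregation with retinoic acid, with the slide changing at the same time. Over both lines, 5 of 9 members fell and 0 rose in limma at adjusted p under 0.05, where 42.1% of 13381 genes were called, 27.9% lower and 14.3% higher. The 2 arrays of a state are 1 of each line and not replicates, here and in the comparisons of states below. The error of these tests is therefore again how much the line difference varied from state to state. Lin28a changed by -6.21 ± 0.96 (log2 ± limma standard error, n = 2 arrays per state, adjusted p = 0.0183) and Pou5f1 by -6.03 ± 1.40 (adjusted p = 0.0363). That of Pou5f1 averages steps of -3.29 in the AICD line and -8.77 in the vector line. Utf1 changed by -5.00 ± 0.50 (limma adjusted p = 0.0126), Dppa4 by -4.65 ± 1.26 (0.0494, well above background on 1 of 2 aggregated arrays) and Sall4 by -3.51 ± 0.90 (0.0443). Nr0b1, Klf4, Sox2 and Esrrb did not pass, with -3.61 ± 1.61, -1.27, -0.36 and 0.64. The median of the members was -3.61, beside -0.31 over all genes. Calls of Sall4 and Dppa4 ended with quantile normalization, and those of Pou5f1, Sall4 and Dppa4 with no filter on dim probes. The 5 calls became 0 without either aggregated array and 1 (Utf1) without the undifferentiated vector array. Within single lines, 4 of 8 members were at least 2-fold lower (Pou5f1, Sall4, Lin28a and Utf1) and 0 higher in the AICD line (17.2% and 10.8% of 11868 genes), and 7 of 9 lower and 1 higher (Esrrb) in the vector line (22.1% and 11.8% of 12076 genes).

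Between aggregated and differentiated cells, which were on the same slide, limma called 0 of 9 members and 0% of 13381 genes, of which 4341 had an unadjusted p under 0.05, Sox2 among them (-0.95, limma adjusted p = 0.148). Within the AICD line, 2 of 8 members were at least 2-fold higher (Lin28a and Sall4) and 2 lower (Nr0b1 and Klf4), against 6.69% and 4.5% of 12064 genes. In the vector line 1 of 8 was higher (Pou5f1) and 4 lower (Esrrb, Sox2, Nr0b1 and Sall4), against 11.1% and 11.3% of 12210 genes. Dppa4 was not well above background on 1 array of either pair. Its bounds were at least 1.69-fold up for AICD cells, again against its own dim signal, and at least 3.90-fold down for vector cells. AICD and vector steps differed by 2.73 for Esrrb, 2.40 for Lin28a, 2.34 for Sall4 and -2.14 for Klf4, untested; the first 3 held ranks 16, 37 and 40 of 11795 genes.

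**Figure D4:**
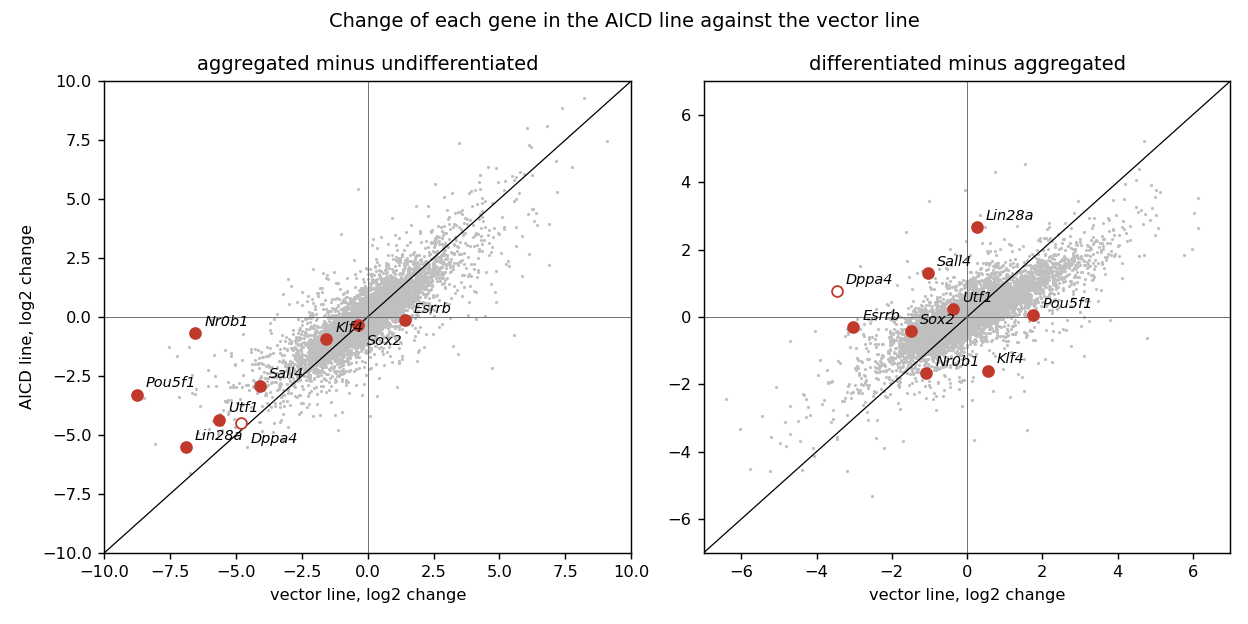
Step of each gene between states in AICD cells (y axis, log2) against the same step in vector cells (x axis, log2), for aggregated minus undifferentiated and differentiated minus aggregated cells; grey points are all genes well above background on the 4 arrays, named points are the members (open for Dppa4, not well above background on every array), and the diagonal marks equal steps. On aggregation Pou5f1 (-3.29 in AICD cells, -8.77 in vector cells) and Nr0b1 (-0.68 in AICD cells, -6.54 in vector cells) lie far above the diagonal.

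Across both steps, from undifferentiated to differentiated cells, limma called 6 of 9 members lower and 0 higher, where 61.4% of all genes were called, 41.3% lower and 20.1% higher, again with the slide changing. These were Dppa4 (-6.00 ± 1.26, adjusted p = 0.0195, well above background on 1 of 2 differentiated arrays), Pou5f1 (-5.12 ± 1.40, 0.0374), Utf1 (-5.07 ± 0.50, 0.00723) and Lin28a (-4.75 ± 0.96, 0.0179), with Sall4 (-3.38 ± 0.90, 0.0355) and Sox2 (-1.31 ± 0.34, 0.0319). The values after the commas are limma adjusted p. Nr0b1 stood at -4.99 (limma adjusted p = 0.056) and Klf4 at -1.79 (0.0535). The count was 2 (Nr0b1 and Utf1) without the undifferentiated vector array and 1 (Dppa4) without the differentiated vector array. It was 3 with quantile normalization, which ended the calls of Pou5f1, Sall4 and Sox2, and 4 with no filter on dim probes, which ended those of Pou5f1 and Sall4. In the AICD line 7 of 9 members were at least 2-fold lower (24.7% of 12124 genes), and in the vector line 8 of 8 (33.3% of 12101 genes).

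Other genes of the circuit were read from lists of pathway genes. For their counts, the shares of all genes are those already given: 27.9% called lower and 14.3% higher on aggregation, and 4.21%, 4.21% and 4.62% at least 2-fold higher and 4.11%, 3.12% and 3.96% lower in AICD cells in the order of the states. Among 11 measured factors of the primed epiblast, the state before gastrulation, 7 were at least 2-fold higher in aggregated AICD cells and 1 lower, with a median of 1.51, and 4 of 10 were higher in the differentiated state. Before aggregation 0 were higher and 3 lower (Fgf5 by a difference of -4.05, Zic2 of -1.68 and Pou3f1 of -1.02). When aggregated, Fgf5 and Pou3f1 were higher in AICD cells by 1.51 and 2.10, and Zic2 differed by -1.27. Gdf3, a TGF-beta family ligand, had 4.26, 0.82 and 1.66 in AICD cells, against 3.52, -4.97 and -2.71 in vector cells. Otx2, a homeodomain factor of epiblast and forebrain, had 2.22, -0.23 and 0.56 in AICD cells, against 2.26, -4.39 and -3.51 in vector cells. Dnmt3b, a DNA methyltransferase that sets new methylation, had 4.27, 0.49 and 1.31 in AICD cells, against 5.26, -1.10 and -1.43 in vector cells. These 3 genes thus started within 2-fold between the lines and stood over 2-fold higher in AICD cells later. On aggregation 5 of 11 fell in limma over both lines: Gdf3 (-5.96), Tdgf1 (-5.31), Dnmt3b (-5.07), Foxd3 (-5.05) and Otx2 (-4.56), with adjusted p between 0.00739 and 0.0464.

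Among 10 tested naive factors, 4 fell on aggregation in limma and 1 rose, against 27.9% and 14.3% of all genes. Fbxo15 (-2.06) and Tcl1 (-1.11) fell, as did Dppa3, at least 2.83-fold, and Tfcp2l1 (-1.65, above background on 1 of 2 aggregated arrays), and Gbx2, which also patterns the hindbrain, rose by 4.28 ± 0.54 (limma adjusted p = 0.0145). Dppa3 was well above background on the 2 undifferentiated arrays only, so it passed the filter on dim probes through the state where it was high. Zfp42, a marker of naive cells, was well above background on 0 arrays. Of 11 tested partners and targets of Oct4, 9 fell on aggregation and 0 rose: Eras (above background on 1 of 2 aggregated arrays), Spp1 (-4.70), Zscan10 (-4.30), Zfp296 (-2.78), Mybl2 (-1.61), Arid3b (-1.48), Rif1 (-1.11), Zfp281 (-0.71) and Lefty2 (at least 2.05-fold). Lefty2, like Dppa3, passed the filter through the 2 undifferentiated arrays alone. Before aggregation 0 of these 11 partners and targets were at least 2-fold higher in AICD cells than in vector cells. In that state 2 were lower (Zfp296 by a difference of -2.50 and Eras of -2.53). In aggregated cells 2 of 9 were higher (Lefty1 by 4.12 and Spp1 by 1.15) and 0 lower. Lefty1 had differed by -0.11 before aggregation. In differentiated cells 4 of 10 were higher (Spp1, Zscan10, Lefty1 and Eras) and 0 lower. Among 13 genes of the Lin28 and let-7 axis, a share near that of all genes fell on aggregation: 4 did (Lin28b -1.90, Igf2bp1 -1.33, Igf2bp3 -0.66 and Dgcr8 -0.56) and Dis3l2, the exonuclease that degrades uridylated let-7 precursors, rose by 1.08. In differentiated AICD cells 3 of the 13 were at least 2-fold higher: Lin28b by 1.24, Mycn and Hmga1, the last with 6.60 in AICD cells, against 5.56 in vector cells. No member of these lists was called by limma for the difference between the lines.

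Of 12 nuclear receptors that act on the Pou5f1 promoter or carry the retinoic acid signal, 9 were called in limma on aggregation, where 42.1% of all genes were. Those that rose were 6: Nr2f1 (COUP-TFI, at least 17.3-fold), Nr2f2 (COUP-TFII, 5.43 ± 1.04), the retinoic acid receptor Rarb (5.39 ± 0.61), Nr2c2 (1.31), Rara (1.20) and Rxra (1.09). Rxrg (-4.03), Rarg (at least 8.85-fold) and Nr5a1 (-2.08) fell, and Nr6a1, Nr2c1 and Rxrb did not pass. In aggregated cells Nr2f2 had 2.35 in the AICD line and 1.56 in the vector line, and Rarb had 2.58 and 3.13. Each was within 2-fold between the lines there, but not before aggregation. When undifferentiated, Nr2f2 had -5.04 in AICD cells and -1.91 in vector cells, and Rarb had -1.81 and -3.25. Nr2f1 had -2.22 in aggregated AICD cells and -1.22 in vector cells. It passed the filter on dim probes only through the 4 later arrays, where it was high. Rarg was well above background on the undifferentiated arrays and in differentiated AICD cells only. Nr6a1 (GCNF), which silences Pou5f1 in mouse embryonic stem cells, was lower in AICD cells when undifferentiated (0.91, against 2.63 in vector cells) and was at -0.01 and -0.37 when aggregated. Of 10 tested early neural factors, 6 rose on aggregation and 0 fell: Fabp7 (6.69), Pou3f2 (at least 26.1-fold), Msx1 (4.54), Sox21 (4.29), Sox11 (3.04) and Zfp521 (1.55). Pou3f2, like Nr2f1, passed the filter only through the 4 later arrays. Sox1 and Pax6 stood at 1.32 and 2.58 with limma adjusted p of 0.0573 and 0.0674. The line difference of the neural list had a median of -0.14 when aggregated and -0.30 when differentiated, with 0 of 9 and 2 of 10 genes above background on both arrays at least 2-fold higher and 1 and 2 lower in AICD cells. Within that list Hes5, a target of Notch signalling that keeps neural progenitors undifferentiated, set the lines far apart: it had -5.06, -5.63 and -5.47 in AICD cells, against -1.93, 5.94 and 5.82 in vector cells. It was not well above background in aggregated AICD cells, where its own dim signal was 3041-fold below that of vector cells. This is the measured fold and not a lower bound. The difference of Hes5 was -11.28 in the differentiated state (limma adjusted p = 0.225 over the 3 states). Msx1 was also lower in AICD cells, with differences of -4.74 when aggregated and -2.23 when differentiated. Its change of 4.54 on aggregation averages steps of 2.22 in the AICD line and 6.87 in the vector line.

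The genes most like Pou5f1 over the 6 arrays, by Pearson's r of the normalized log2 signals among 4270 genes that ranged over at least 2 units, were Fbln7 (0.998, above background on 2 arrays), Apobec1 (0.994), Gdf3 (0.993), Otx2 (0.992) and Zfp599 (0.987). For Lin28a they were Dcdc2a (0.998), H2-DMb1 (0.994, above background on 3 arrays), Enpp3 (0.993), Pla2r1 (0.993, on 2 arrays) and Sgk1 (0.992). Enpp3 had 3.75, -1.64 and 1.07 in AICD cells, against 4.71, -3.35 and -2.02 in vector cells, with more signal after replating in both lines. Sox2 was most like Nampt (0.999), Crls1 (0.990), Anapc1 (0.989), Fam185a (0.989) and Pkn2 (0.989), among 9448 genes that ranged over at least 1 unit. These coefficients describe 6 arrays that share their scaling, and with so few points many genes reach high values.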

How the data were processed

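RNA of 6 P19 samples was read on 6 Agilent single-colour (Cy3) arrays. Per the file headers, the authors used Agilent Feature Extraction 10.1.1.1 to read the spots, and the deposited processed signal is an intensity that was background-subtracted and detrended within, but not scaled between, arrays. The median spot and background signals of these deposited files were used for an alternative, normexp with offset 50, since the files hold no mean spot signal. The authors also deposited values whose unit is a score; these matched a coding of the same log2 signals, scaled to the 75th percentile and centred on each probe, within 0.01 for 99.5% to 99.8% of listed values, and were not used in tests. The annotation behind the probes is not stated; the array header names build mm9.

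Control spots were left out, spots of a probe were averaged, and log2 signals were centred on the array's 75th percentile. Probes were named through RefSeq accessions (24844 of 41174 had a symbol). A probe had to be well above background on at least 2 of 6 arrays, and each gene was represented by its probe of highest mean, leaving 13381 genes. The model of state and line was fitted in R 4.3.3 by limma 3.58.1 (files read by version 1.17.8 of data.table), with 2 residual and 2.05 prior degrees of freedom, two-sided, with Benjamini-Hochberg adjustment at 0.05. P-values measure how much the line difference varied between states on these arrays, which may be technical, and not the spread of replicate cultures. The script was tested on simulated data. A bound sets the brighter signal against the higher of the dim array's own signal and its lowest signal well above background. Alternatives were another background correction, quantile normalization, other filters, the mean of probes, the second slide alone and each array left out.

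The genes and lists were chosen with earlier results of these data known. All members are named; of each list, the called genes and up to 4 with the largest fitted difference may be named, and for Pou5f1, Sox2 and Lin28a the 5 genes of highest Pearson r. Other genes named (Enpp3's values, Nr6a1, Mycn, Hmga1, Sox1, Pax6, Zfp42, Hes5, T, Eomes, Cdx2, Kdr and Tbx6) were chosen after their values were seen. So were Krt8, Krt18, Fgf5, Zic2, Pou3f1 and Lefty1. Marker lists covered 7 cell classes.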

Additional observations from a re-analysis of the deposited data

Results flagged for a closer look

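Sall4 moved in opposite directions in the lines after replating, by 1.30 in AICD cells and -1.04 in vector cells (log2, differentiated minus aggregated, brighter probe). This difference was not tested, since each line and state has 1 array. Opposite steps of at least 2-fold were seen in 21 of 11795 genes, or 0.178%. The dimmer probe of Sall4 gave -0.37 in AICD cells and -0.50 in vector cells.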

How the results depend on the processing

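The labels give no replicate numbers, so no pairing by number was fitted; the term for state already compares the lines within each state. The normexp alternative was chosen after seeing the data. The authors' values were not run as an alternative, since it recodes the same signals.

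For AICD minus vector, 47 genes were called, against 78 with normexp correction, 0 with no filter on dim probes, 97 on the second slide alone and 0 to 97 with 1 array left out; the members called were 0, against 1 (Nr0b1) on the second slide and 0 to 1 with 1 array left out. On aggregation 5634 genes were called, and 0 to 4185 with 1 array left out; the 5 members called became 3 with quantile normalization, 2 with no filter and 0 to 5 with 1 array left out. From the aggregated to the differentiated state, 0 genes were called, against 1391 with normexp correction and 733 with a filter on all 6 arrays, which leaves out Dppa4. Across both steps 8215 genes and 6 members were called, with 3 members under quantile normalization, 4 with no filter and 879 to 6628 genes and 1 to 6 members with 1 array left out. For AICD minus vector, leaving out either undifferentiated array gave the same fit as the second slide alone, so these are not separate checks. Fewer arrays leave fewer degrees of freedom, and the cause of the other changes was not tested.

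Signs turned only for estimates that no test called. On the second slide alone AICD minus vector was 0.055 for Sox2, 0.46 for Dppa4 and 0.26 for Utf1, and with the mean of its probes Sall4 had -0.15 for differentiated minus aggregated. With 1 array left out, AICD minus vector ranged from -0.48 to 0.055 for Sox2, -1.80 to 0.46 for Dppa4, -0.68 to 0.26 for Utf1, -0.18 to 1.19 for Esrrb, -0.64 to 0.43 for Klf4 and -0.010 to 1.88 for Lin28a. Differentiated minus aggregated ranged from -1.34 to 1.59 for Sall4, -2.99 to 0.23 for Nr0b1, -1.44 to 0.39 for Klf4, -0.69 to 0.55 for Utf1, -0.89 to 2.70 for Pou5f1, -0.081 to 3.01 for Lin28a and -3.53 to 0.83 for Dppa4. Aggregated minus undifferentiated ranged from -0.43 to 1.71 for Esrrb. Of 410 fitted values under alternatives, 324 kept direction and side of the threshold. The differences between single arrays, on which the ranks and 2-fold counts rest, held less well. Of 243 such values under alternatives, 137 were counted as the same and 106 as moved. The median step of all genes on aggregation was -0.31, against -0.24 with normexp correction and -0.13 with quantile normalization. Signal over background limits Esrrb and Dppa4 most.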
